A study of Rattus norvegicus with 6 samples.

Results

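Stat3, Socs3 and Lcn2 are 3 of the 34510 rows of a count table made from the median eminence of rats, and they were followed here as a factor, its feedback inhibitor and a secreted product of acutely reactive astrocytes. They were chosen by Ensembl identifier: ENSRNOG00000019742 for Stat3, ENSRNOG00000002946 for Socs3 and ENSRNOG00000013973 for Lcn2. The symbols come with the definition of this set of genes, since the count table gives identifiers alone and 0 of its Ensembl identifiers could be looked up in the reference gene table. The median eminence is the part of the hypothalamic floor where axons release hormones into the vessels that lead to the pituitary. RNA was sequenced from 3 S-D rat samples taken 1 day after the surgery labelled PEL and from 3 S-D rat samples labelled control. The labels do not spell out PEL, do not say whether controls had a sham operation, and do not say whether samples were single animals or pools, so p-values reflect how much these samples vary, and some of that variation may be technical.

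STAT3 is a transcription factor that waits in the cytoplasm until a cytokine or leptin receptor and its JAK kinases phosphorylate it, after which it enters the nucleus and switches on its targets. Socs3 is one of these targets, and its protein binds the receptor and the kinase and shuts the signal down, a feedback loop known in the hypothalamus as a brake on leptin signalling. Lcn2 encodes lipocalin-2, a secreted protein that binds iron-carrying siderophores. It is made in the injured rodent brain by reactive astrocytes, among other cells, and is also stored in neutrophil granules. Transcript levels were measured here, not phosphorylation or protein.

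All 3 genes rose 1 day after PEL, in steps of increasing size: Stat3 1.73-fold, Socs3 5.55-fold and Lcn2 19.0-fold. In each gene the 3 PEL samples lay above the 3 control samples. All 3 passed a threshold of 0.05 on the p from edgeR's quasi-likelihood test, adjusted by Benjamini-Hochberg over the 17133 rows tested. Of those rows, 5.29% were called in either direction, 4.21% higher and 1.07% lower. Stat3 kept its call in all 16 other settings tried, Socs3 in 11 and Lcn2 in 12, and leaving out 1 library moved the 906 calls over all rows to between 173 (without control replicate 1) and 2092 (without PEL replicate 3). Groups that did not overlap were far more common than calls, at 30.0% of tested rows in either direction and 16.2% with PEL above, so non-overlap by itself is a weak description of these genes. The median log2 fold change was -0.02 over all tested rows and 1.10 over the 722 rows called higher. In whole tissue, more RNA per cell and more cells of a type that makes the transcript cannot be told apart.

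Libraries held 13756297 to 17144108 assigned reads. On the first principal component of log2(CPM + 1), where CPM is the read count scaled to a common library size with TMM factors, the PEL libraries lay at 25.7, 44.0 and 4.60 for replicates 1, 2 and 3, and the control libraries lay between -26.1 and -23.4. PEL replicate 3 was thus nearest to the controls and PEL replicate 2 farthest, and each fold change below is given with and without a library where this matters. Markers of the median eminence, of neutrophils and of other cell types, and the other genes of the pathway (ligands, receptors, kinases, other inhibitors and targets), are not analysed here, because no symbol could be tied to their identifiers. The part of such cells in the rises was not tested.

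The sequence just upstream of the gene is shown for Lcn2, the gene with the largest rise, and for Stat3 beside it. Both come from RefSeq promoter windows of the GRCr8 assembly, limited to the bases that lie outside the annotated gene. They are given 5′ to 3′ on the minus strand, from chr3:36081852-36082030 for Lcn2 and chr10:86363514-86363609 for Stat3. Capitals mark matches to the kappaB consensus GGGRNWYYCC, the motif bound by NF-kappaB, and to the C/EBP motif TTGCNNAA. Here R is A or G, W is A or T, Y is C or T, and N is any base. The kappaB match in Lcn2 fits the consensus when read on the opposite strand.
Lcn2: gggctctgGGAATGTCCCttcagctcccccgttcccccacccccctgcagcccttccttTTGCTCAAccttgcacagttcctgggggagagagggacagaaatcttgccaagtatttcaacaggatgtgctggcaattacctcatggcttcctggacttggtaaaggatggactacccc
Stat3: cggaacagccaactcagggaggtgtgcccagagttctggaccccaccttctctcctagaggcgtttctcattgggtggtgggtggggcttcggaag

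Whole windows of 300 bases were searched on both strands for 5 motifs: the STAT motif TTCNNNGAA, the kappaB consensus, the C/EBP motif TTGCNNAA, the AP-1 motif TGANTCA and the CRE motif TGACGTCA. The Lcn2 window held 1 kappaB match, GGAATGTCCC, and 1 C/EBP match, TTGCTCAA, which do not overlap. The Socs3 window held 1 kappaB match, GGGGTGCCCC, also read on the opposite strand, but this window lies wholly inside the annotated gene and is not printed. The Stat3 window matched none of the 5 motifs, and the STAT motif was found in 0 of the 3 windows. Of the 300 bases, 204 in the Stat3 window and 121 in the Lcn2 window also lie inside the annotated gene, so the search was only partly of upstream sequence. Among all 33469 promoter windows of this length, 4.18% held the kappaB consensus, 10.6% the C/EBP motif and 8.87% the STAT motif. The AP-1 motif was in 7.33% and the CRE motif in 1.83%. These matches describe letters in a window and are not binding sites, and a missing match says nothing of sites elsewhere.

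Stat3, the factor itself, had from 2922 to 6830 reads in each library, and its rise was the smallest and the most even. It stood at 351, 419 and 344 CPM in PEL replicates 1, 2 and 3, against 212, 208 and 226 CPM in control replicates 1, 2 and 3. Every PEL library was higher than every control library, and the lowest PEL value was 1.52 times the highest control value. The means were 371 ± 41.4 CPM after PEL and 215 ± 9.37 CPM in controls (SD, n = 3 each). On the log2 scale this was a change of 0.79 (SE 0.09, edgeR adjusted p = 0.00424). By size of fold change Stat3 was 462 among the 722 rows called higher. Among the 483 tested rows with at least its mean CPM over both groups, 9 had as large a rise, with Stat3 itself in both counts.

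Within the PEL group Stat3 varied little, with a coefficient of variation of 11.1%, against 4.35% in controls. PEL replicates 1 and 3 could not be told apart by counting error, with a ratio of 1.02 (95% exact interval 0.986 to 1.06), while replicate 2 was 1.19 times replicate 1 (1.15 to 1.24). These intervals allow for counting error alone, and copies made by PCR are not separate molecules. Stat3 stayed past the threshold whichever single library was left out, with log2 fold changes of 0.70 to 0.84 and edgeR adjusted p of 0.00319 to 0.0387.

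**Figure D1:**
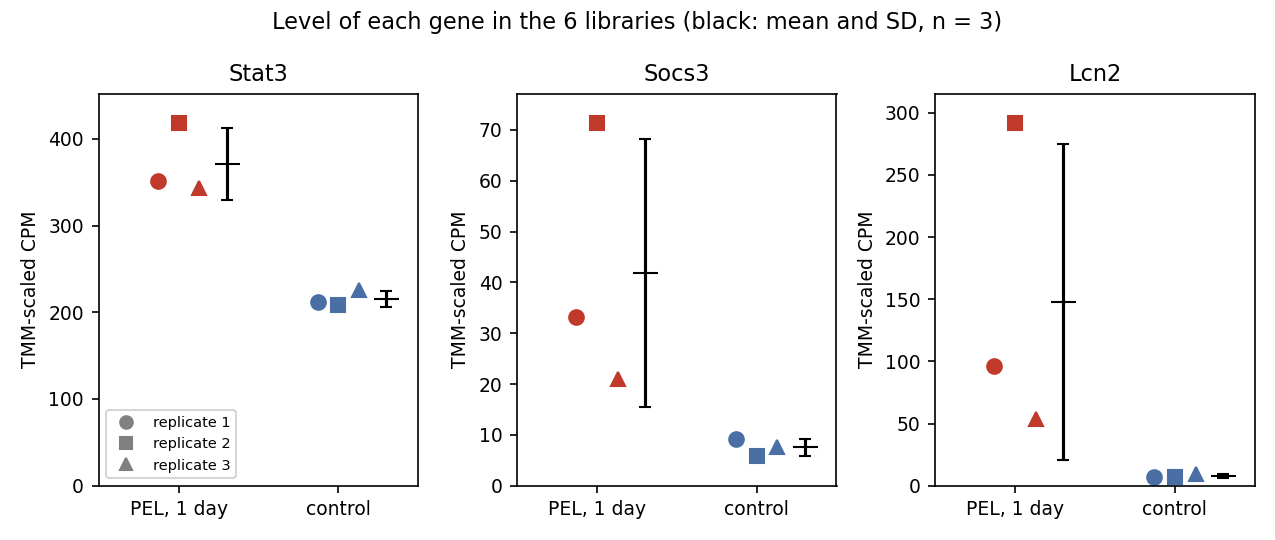
TMM-scaled CPM (vertical axes, from 0) of Stat3, Socs3 and Lcn2 in each PEL library (left, red) and control library (right, blue); symbols mark the replicate and black bars the mean and SD of 3 libraries. Every PEL point lies above every control point, and PEL replicate 2 is the highest point of each panel, at 419, 71.5 and 292 CPM.

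Socs3, the feedback inhibitor, had few reads in controls and rose several-fold after PEL. Its level was 33.2, 71.5 and 20.9 CPM in PEL replicates 1, 2 and 3, against 9.14, 5.81 and 7.71 CPM in control replicates 1, 2 and 3. The groups did not overlap, and the lowest PEL library, replicate 3, was 2.29 times the highest control library, replicate 1. The values rest on 535, 1165 and 356 reads after PEL and on 126, 93 and 130 reads in controls. At the smallest of these counts, in control replicate 2, the 95% exact Poisson interval was 4.69 to 7.12 CPM, so counting error is small beside the difference.

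The mean of Socs3 was 41.9 ± 26.4 CPM after PEL and 7.55 ± 1.67 CPM in controls (SD, n = 3 each). The fitted log2 change was 2.47, with an SE of 0.44 (edgeR adjusted p = 0.0210), and it was 87 by fold change among the 722 rows called higher. The PEL group was wide, with a coefficient of variation of 63.0%, against 22.1% in controls. Replicate 2 was 2.15 times replicate 1 (95% exact interval 1.94 to 2.39), and replicate 1 was 1.58 times replicate 3 (1.38 to 1.82), so the order 2, 1, 3 exceeded counting error at both steps. The fold change was 3.61 without PEL replicate 2 and 6.95 without PEL replicate 3, against 5.55 with all libraries.

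The call of Socs3 was fragile where that of Stat3 was not. It was lost with limma-voom (adjusted p = 0.0682) and in edgeR without control replicate 1 (adjusted p = 0.0817), control replicate 2 (0.101), control replicate 3 (0.0851) or PEL replicate 1 (0.0677). The fold change itself was 4.95 to 6.18 in these 5 fits, against 5.55 as reported. Leaving out either of the PEL libraries at the ends of the range kept the Socs3 call, with edgeR adjusted p of 0.00969 without PEL replicate 2 and 0.00424 without PEL replicate 3. Rows called were 691 without PEL replicate 2 and 2092 without PEL replicate 3.

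Lcn2, the secreted product, showed the largest rise of the 3 genes. It reached 96.4, 292 and 53.9 CPM in PEL replicates 1, 2 and 3, against 7.03, 6.87 and 9.25 CPM in control replicates 1, 2 and 3. Even the lowest PEL library, replicate 3, was 5.83 times the highest control library, replicate 3, the widest gap among these genes. Reads numbered 1555, 4761 and 917 after PEL and 97, 110 and 156 in controls. The transcript was therefore present in the controls as well, at a low level in all 3 libraries.

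Averaged over libraries, Lcn2 stood at 147 ± 127 CPM after PEL and 7.72 ± 1.33 CPM in controls (SD, n = 3 each). The fitted log2 change was 4.25, with an SE of 0.63 (edgeR adjusted p = 0.0121). This placed Lcn2 at 7 by fold change among the 722 rows called higher. Of its 147 CPM after PEL, 140 were gained over the controls, nearly the whole of the level, whereas Stat3 gained 156 of its 371 CPM and had most of its level in controls already.

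The size of the Lcn2 rise depended on the library more than that of the other genes. The coefficient of variation was 86.1% after PEL and 17.2% in controls, and PEL replicate 2 was 3.03 times replicate 1 (95% exact interval 2.86 to 3.21), which was 1.79 times replicate 3 (1.65 to 1.94). The fold change was 9.75 without PEL replicate 2 (edgeR adjusted p = 0.00239), against 19.0 with all libraries. On the log2 scale the change was 4.65 without PEL replicate 3 (edgeR adjusted p = 0.00247). The call was lost with limma-voom (adjusted p = 0.0570) and in edgeR without control replicate 1 (adjusted p = 0.0731), control replicate 2 (0.0716) or control replicate 3 (0.0568). In these 3 fits with 1 control library left out, the fold change was 18.0 to 21.4. Rows called in them numbered 173, 187 and 246, and 629 with limma-voom, against 906 as reported.

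**Figure D2:**
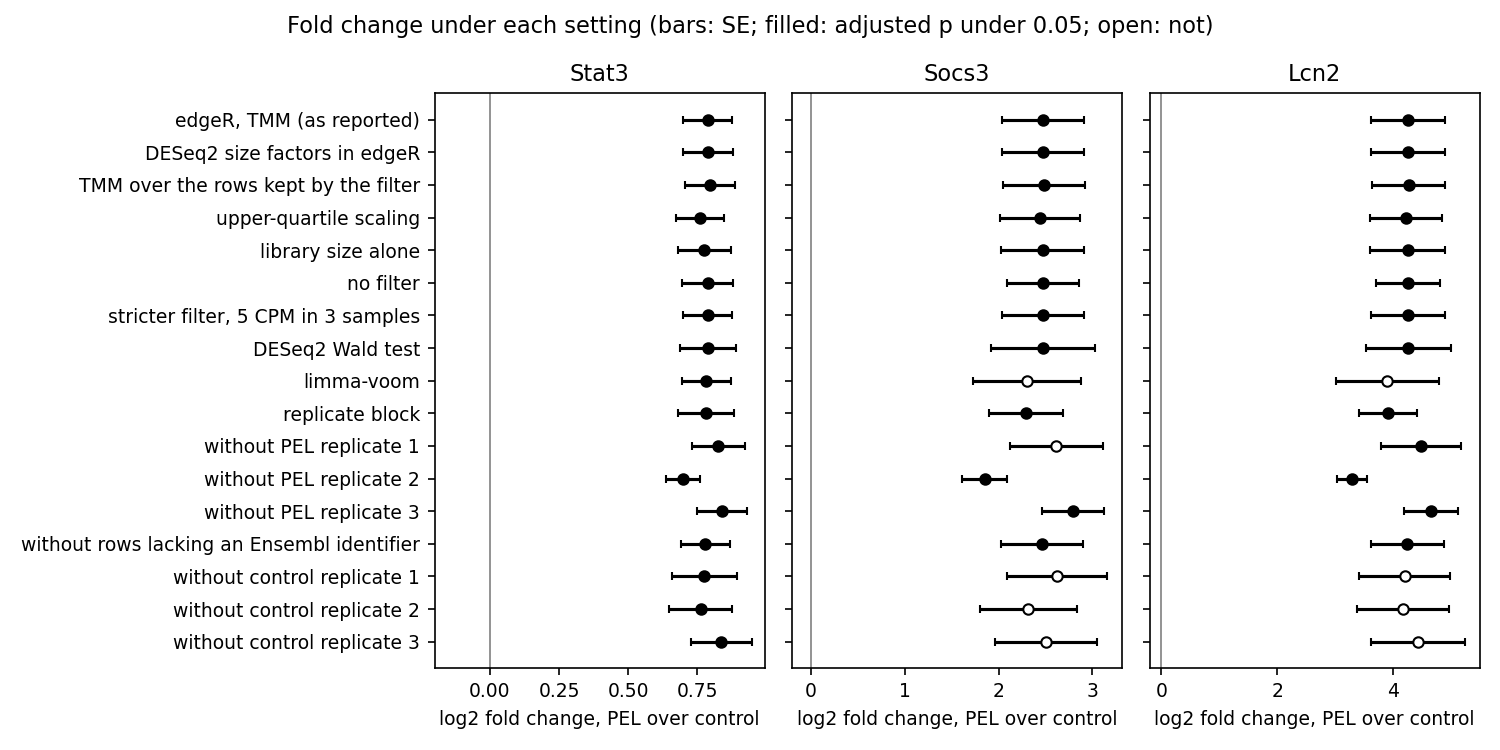
Log2 fold change, PEL over control (horizontal axes), with SE bars, of Stat3, Socs3 and Lcn2 as reported (top) and under each of 16 other settings; filled points have an adjusted p under 0.05 and open points do not. Stat3 is filled throughout, Socs3 is open in 5 settings and Lcn2 in 4, and all points lie to the right of 0.

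By their point values all 3 genes ranked the PEL libraries in the order 2, 1, 3. For Stat3, however, replicates 1 and 3 could not be told apart by counting error (ratio 1.02, 95% exact interval 0.986 to 1.06). Relative to the control mean, PEL replicate 2 stood at 0.96 on the log2 scale for Stat3, 3.24 for Socs3 and 5.24 for Lcn2. PEL replicate 1 stood at 0.71, 2.14 and 3.64 for the same genes, and PEL replicate 3 at 0.68, 1.47 and 2.80. The highest PEL library was 1.22 times the lowest for Stat3, 3.41 times for Socs3 and 5.42 times for Lcn2. The order 2, 1, 3 was not particular to these genes, since 60.0% of the 722 rows called higher had it, and it also matches the order of the libraries on the first principal component.

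**Figure D3:**
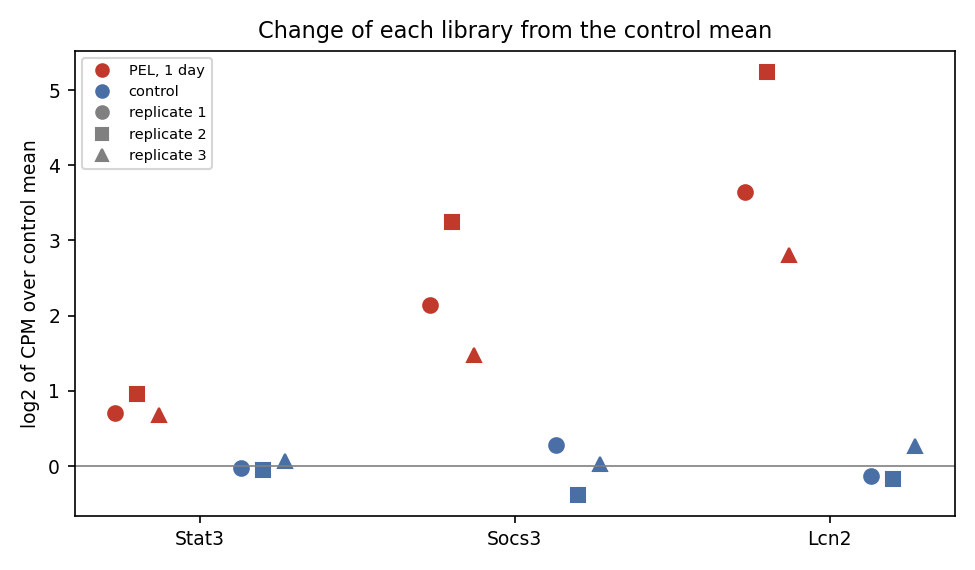
Log2 of each library's CPM over the control mean (vertical axis) for Stat3, Socs3 and Lcn2, with PEL libraries in red to the left of control libraries in blue and symbols for the replicate. PEL replicate 2 lies highest and replicate 3 lowest in each gene, though for Stat3 replicates 1 and 3 are not separated by counting error. The spread of the red points widens in the order Stat3, Socs3, Lcn2.

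The rises were also compared with each other inside each library, where the depth and the scaling cancel. Reads of 1 gene per 100 reads of another depend on the lengths of both transcripts, so only the difference between groups is read from them. There were 9.44, 17.1 and 6.09 Socs3 reads per 100 Stat3 reads in PEL replicates 1, 2 and 3, against 4.31, 2.79 and 3.41 in control replicates 1, 2 and 3. The inhibitor thus gained on its factor in every PEL library, by 2.88-fold on average, a difference in mean log2 ratio of 1.53.

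Lcn2 gained on Stat3 further still. There were 27.4, 69.7 and 15.7 Lcn2 reads per 100 Stat3 reads in PEL replicates 1, 2 and 3, against 3.32, 3.30 and 4.10 in control replicates 1, 2 and 3. The average gain was 8.74-fold, a difference in mean log2 ratio of 3.13, and no PEL library overlapped a control library.

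Lcn2 and Socs3 had similar numbers of reads in controls, and Lcn2 pulled ahead after PEL. There were 291, 409 and 258 Lcn2 reads per 100 Socs3 reads in PEL replicates 1, 2 and 3, against 77.0, 118 and 120 in control replicates 1, 2 and 3. This gain was 3.04-fold, a difference in mean log2 ratio of 1.60, with SDs of 0.35 after PEL and 0.36 in controls (n = 3 each). Across the PEL libraries it was the steadiest of the 3 ratios, against SDs of 0.75 for Socs3 to Stat3 and 1.09 for Lcn2 to Stat3. Across the control libraries it was the least steady, against SDs of 0.31 for Socs3 to Stat3 and 0.18 for Lcn2 to Stat3. For each of the 3 ratios an exact two-sided permutation test over samples gave p = 0.1, also after Benjamini-Hochberg adjustment over the 3 ratios, which is the smallest value that 3 samples against 3 allow, so the unequal rises could not pass a threshold of 0.05 in this design.

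**Figure D4:**
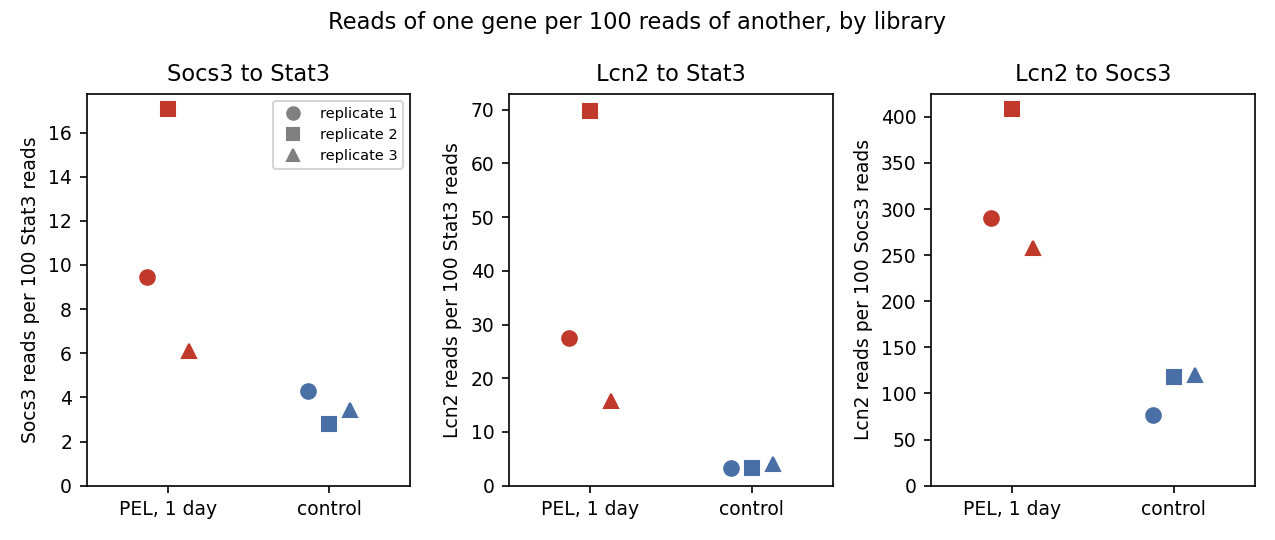
Reads of one gene per 100 reads of another (vertical axes, from 0) in PEL libraries (left, red) and control libraries (right, blue), with symbols for the replicate. In each panel all PEL points lie above all control points; for Socs3 to Stat3 the nearest PEL and control points are 6.09 and 4.31.

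Among all tested rows, the 3 genes sat at different places. The plot of fold change against level shows Stat3 among rows of high CPM, where changes were small, and Lcn2 above most rows called higher. The level plotted is a mean over both groups, which for Lcn2 is set almost wholly by the PEL libraries. For Socs3 it is set mostly by them, at 41.9 CPM after PEL and 7.55 CPM in controls. The places of both genes along this axis are therefore not independent of their rises. CPM is not divided by transcript length.

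**Figure D5:**
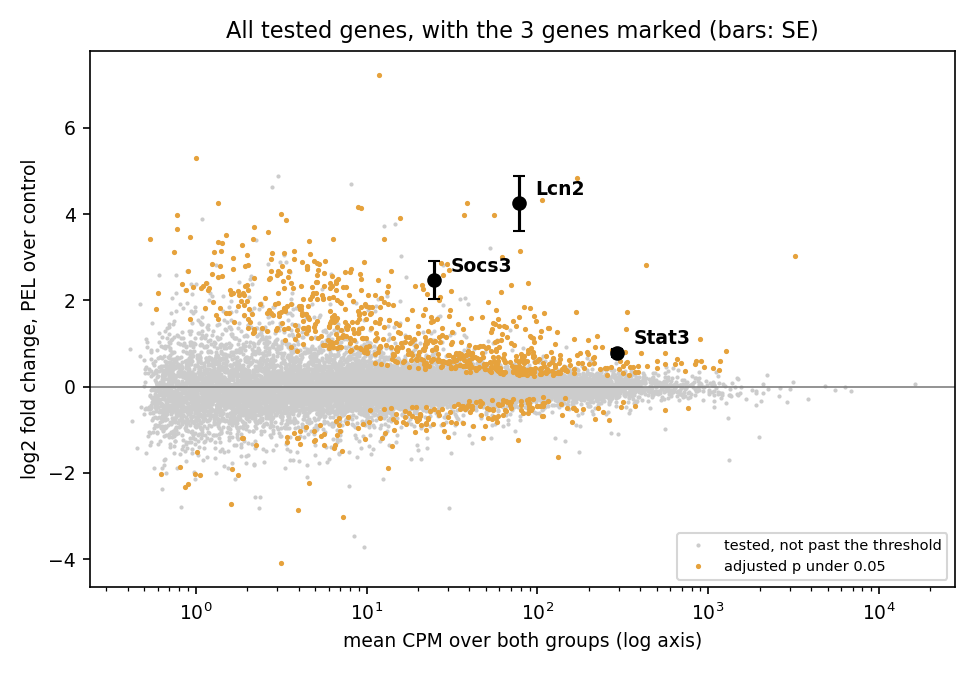
Log2 fold change, PEL over control (vertical axis), against mean CPM over both groups (horizontal log axis) for 17133 tested rows; orange points have an adjusted p under 0.05, and black points with SE bars are the 3 genes. Lcn2 stands at 4.25, Socs3 at 2.47 and Stat3 at 0.79.

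The rows with the most similar profiles were sought among 12548 other rows with an Ensembl identifier and a mean of at least 5 CPM, by the root mean square difference of log2 CPM over the 6 libraries, each row taken relative to its control mean. For each of the 3 genes the nearest row was found, and the closer 2 of these 3 rows are named. The row nearest to Stat3 was ENSRNOG00000009037, at a difference of 0.05, with 162, 188 and 156 CPM in PEL replicates 1, 2 and 3 and 97.9, 95.7 and 112 CPM in control replicates 1, 2 and 3. The row nearest to Lcn2 was ENSRNOG00000008816, at a difference of 0.13, with 55.7, 143 and 23.6 CPM in PEL replicates 1, 2 and 3 and 3.34, 3.75 and 4.45 CPM in control replicates 1, 2 and 3. It was chosen for this likeness, so its rise adds nothing to that of Lcn2. The next row for Lcn2 was farther off, at 0.34, whereas the next row for Stat3 was about as near as the named row, at 0.06. The nearest row to Socs3 lay at 0.18 and the next at 0.21. The difference is not scaled to the size of each gene's change, so 0.05, 0.13 and 0.18 do not compare likeness between genes. All these values are descriptions over 6 libraries, and the identifiers could not be tied to symbols.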

How the data were processed

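The authors deposited 1 table of counts, the raw reads assigned to each gene in each sample, with no normalization; HISAT2 2.0.5, featureCounts 1.5.0-p3 and DESeq2 1.16.1 are named in the submitters' processing notes. The genome build, annotation and strand setting are not given in sources used here, so reads of overlapping or antisense genes could not be separated. Of 34510 rows, 32883 have an Ensembl identifier and 1627 a placeholder; none is a total. Counts were scaled by TMM over all rows, filtered by filterByExpr (minimum count 10) and tested with edgeR 4.0.16 (glmQLFit, glmQLFTest, two-sided, R 4.3.3), with calls where the p adjusted by Benjamini-Hochberg was under 0.05. The SE is the log2 fold change over the square root of F. Profiles used log2 CPM with a prior count of 2. The fit was tested on simulated data. Libraries of a group differed beyond sampling noise (chi-square per degree of freedom 4.50 to 24.1), so each counted as 1 replicate. The members, lists and tests were chosen with earlier results of these data known. The genes named are the 3 members and, without symbols, the row with the nearest profile to each member, of which the closer 2 are printed. Lists of pathway genes and of cell type markers were not run. Alternatives were other scalings and filters, DESeq2 1.42.0, limma-voom (limma 3.58.1), the replicate number as a block, leaving out placeholder rows and leaving out each sample. Figures used matplotlib 3.10.9.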

Additional observations from a re-analysis of the deposited data

How the results depend on the processing

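All 3 genes kept a positive fold change in each of 16 alternatives. Stat3 stayed past the threshold in all 16, with log2 fold changes of 0.70 to 0.84, Socs3 in 11 (1.85 to 2.80 over all 16) and Lcn2 in 12 (3.29 to 4.65 over all 16). Highest adjusted p were 0.0387, 0.101 and 0.0731. With limma-voom, Socs3 (log2 fold change 2.31, adjusted p = 0.0682) and Lcn2 (3.89, adjusted p = 0.0570) lost the call, leaving 1 gene called. That method called 629 of the 17133 rows tested, against 906 as reported. Leaving out 1 sample left 1 to 3 of the genes called, with 0.70 to 0.84 for Stat3, 1.85 to 2.80 for Socs3 and 3.29 to 4.65 for Lcn2. Over all rows it gave 173 calls (without control replicate 1) to 2092 (without PEL replicate 3), of which 161 to 1409 were higher and 12 to 683 lower, against 906, 722 and 184 as reported. The DESeq2 Wald test called 1648 (1203 higher, 445 lower). A fit with the replicate block called 544 rows (442 higher, 102 lower), and all 3 genes stayed called, with adjusted p of 0.0187, 0.0381 and 0.0174. Same-numbered samples did not deviate together (correlations 0.004, -0.08 and -0.05), so the numbers were not taken as pairs. Fits without a sample have fewer samples, and otherwise the cause was not tested. The 3 ratios between genes kept their direction with 0.5 or 5 reads added and without any 1 sample. Depth was not varied. The smallest member count was 93 reads, for Socs3 in control replicate 2.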
